A study of Mus musculus with 7 samples.

Results

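C-type lectin (Clec) genes were examined in ventricles from a genetic mouse model of the myocarditis seen with immune checkpoint inhibitors (ICI). The members are all rows of the expression table whose symbol begins with Clec followed by a digit, which gave 31 of 23420 genes, chosen by name and not by their values. Bulk total RNA was sequenced from 4 control hearts of genotype Ctla4+/+;Pdcd1-/- and 3 ICI-myocarditis hearts of genotype Ctla4+/-;Pdcd1-/-. All 7 mice therefore carried the same loss of Pdcd1, which encodes PD-1, and the groups differed by 1 copy of Ctla4. Both PD-1 and CTLA-4 restrain T cells. The mice were 3 to 6 weeks old and labelled as having no treatment, each library is labelled as a separate sample, and the labels name the tissue both as whole heart and as flash-frozen ventricle. The comparison asks which transcripts differ in the inflamed heart.

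C-type lectins share a fold that in its classical form binds sugars in a calcium-dependent way, although many Clec proteins bind proteins or lipids instead. On macrophages, monocytes, dendritic cells and neutrophils they act as pattern and damage receptors. One set signals through tyrosine activation motifs (ITAM), either in the receptor tail (a hemITAM) or in the adaptors FcR-gamma and DAP12, and recruits the kinase Syk and the scaffold CARD9. A second set carries an inhibitory motif (ITIM) that recruits phosphatases. Further members are ligands for natural killer cell receptors, endothelial proteins or secreted matrix proteins.

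Libraries held 20931730 to 39037176 reads assigned to genes. Levels are given as normalized counts, that is reads per gene after division by a size factor of the library. Genes that reached 10 normalized counts in 3 or more libraries were tested, and a gene was called at an adjusted p below 0.05 in limma, over all 15258 genes tested. The summed level of 5 cardiomyocyte markers was between 582326 and 1727660 normalized counts in every library, as the tissue label requires. Control 2 stood apart from the other controls in T cell transcripts: 5 T cell markers summed to 925 normalized counts there, against a lowest control value of 67.6 and 3796 to 5749 in ICI-myocarditis. The targeted genes, both expressed by T cells, gave no check of the genotypes, and groups are named as labelled. Ctla4 was 29.2 to 113 normalized counts in controls and 251 to 373 in ICI-myocarditis, and Pdcd1 was 9.07, 244, 3.35 and 2.50 in controls and 1096 to 1481 in ICI-myocarditis although all mice are labelled as lacking it; which part of each gene was deleted is not given in the sources used here. In bulk tissue, more cells of a type and more RNA per cell cannot be told apart.

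Of the 31 Clec genes, 20 lie in a pair of groups on chromosome 6, as annotated on GRCm38. The first group holds 9 Clec4 genes within 368023 bases (chr6:122921848-123289870), from Clec4a1 to Clec4e. The second holds 11 genes within 810395 bases (chr6:128662385-129472779), from Clec2h to Clec7a. Promoter sequence was found in RefSeq (GRCm38.p6) for 25 members. The 200 bases before the annotated start are shown for 4 members that rose and whose stretch overlaps no annotated exon. Clec4e had the largest rise, Clec4a1 the lowest p-value of the members, and Clec4b1 and Clec2d are the members with a pair of interferon regulatory factor (IRF) half-sites. They lie at chr6:123289872-123290071 (minus strand), chr6:122921648-122921847 (plus), chr6:123049762-123049961 (plus) and chr6:129180415-129180614 (plus), and are written 5′ to 3′ on the strand of the gene.
Clec4e: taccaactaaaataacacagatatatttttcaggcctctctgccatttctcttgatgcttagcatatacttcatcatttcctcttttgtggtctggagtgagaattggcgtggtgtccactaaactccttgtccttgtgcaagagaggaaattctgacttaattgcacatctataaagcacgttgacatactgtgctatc
Clec4a1: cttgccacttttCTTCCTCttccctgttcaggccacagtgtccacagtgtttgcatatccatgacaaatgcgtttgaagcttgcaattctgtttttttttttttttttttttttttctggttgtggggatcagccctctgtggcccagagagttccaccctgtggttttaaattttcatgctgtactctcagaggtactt
Clec4b1: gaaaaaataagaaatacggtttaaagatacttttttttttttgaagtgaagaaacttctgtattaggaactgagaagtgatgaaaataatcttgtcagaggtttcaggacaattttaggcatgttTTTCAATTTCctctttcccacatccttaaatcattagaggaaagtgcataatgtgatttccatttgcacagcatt
Clec2d: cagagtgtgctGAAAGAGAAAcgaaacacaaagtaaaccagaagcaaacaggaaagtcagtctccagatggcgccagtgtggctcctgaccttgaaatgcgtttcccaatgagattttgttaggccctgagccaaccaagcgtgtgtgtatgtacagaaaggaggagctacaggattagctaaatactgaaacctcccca
Capitals mark matches on either strand to 3 motifs, namely GAGGAAG (the core bound by PU.1 and related ETS factors of myeloid cells), the IRF pair (a repeat of the half-site GAAA with any 2 bases in between) and TTCNNNGAA (the palindrome bound by STAT factors). In the 250 bases before the start, GAGGAAG was present in 6 of the 25 members with a sequence (Clec4a1, Clec4d, Clec5a, Clec12a, Clec16a and Clec18a) and in 10.6% of all 32851 promoters. The IRF pair was present in Clec4b1 and Clec2d and in 2.98% of all promoters. TTCNNNGAA was present in Clec4a2 alone among the members and in 7.02% of all promoters. The CCAAT box, the TATA box (TATAAA) and the E-box (CACGTG) were also searched and are not marked. They were present in 10, 7 and 0 of the 25 members, and in 33.8%, 12.4% and 6.02% of all promoters. The Clec4e stretch held none of the 3 marked motifs, which says only that these letters are not there.

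Of the 31 members, 25 were abundant enough to test, 11 were called higher, 1 was called lower, and 13 were tested and not called. Over all genes tested, 11.7% were called higher and 4.0% lower. All 3 ICI-myocarditis libraries lay above all 4 controls for 12 tested members and below them for 3, where the shares over all genes were 17.3% and 11.3%. The median log2 fold change of the 25 was 1.16, against -0.02 over all genes tested, with 17 of the 25 above 0. Clec4e, Clec4d, Clec2g and Clec2i entered the test through the 3 ICI-myocarditis libraries with fewer than 3 controls at the filter, and Clec4e and Clec4d are among the called. Clec4g, Clec2l and Clec18a entered only through controls, with fewer than 3 ICI-myocarditis libraries at the filter. The counts over tested members are therefore a description. The count of 11 fell to 6 without ICI-myocarditis 3 and to 7 without control 3, and was 14 without control 2. The 14 include Clec4e, Clec2g and Clec2i, which in that fit passed the filter through ICI-myocarditis libraries alone. In the authors' deposited table, 11 members were higher and 3 lower at an adjusted p below 0.05, all 12 called here among them, with Clec14a and Clec4g as the other two.

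**Figure D1:**
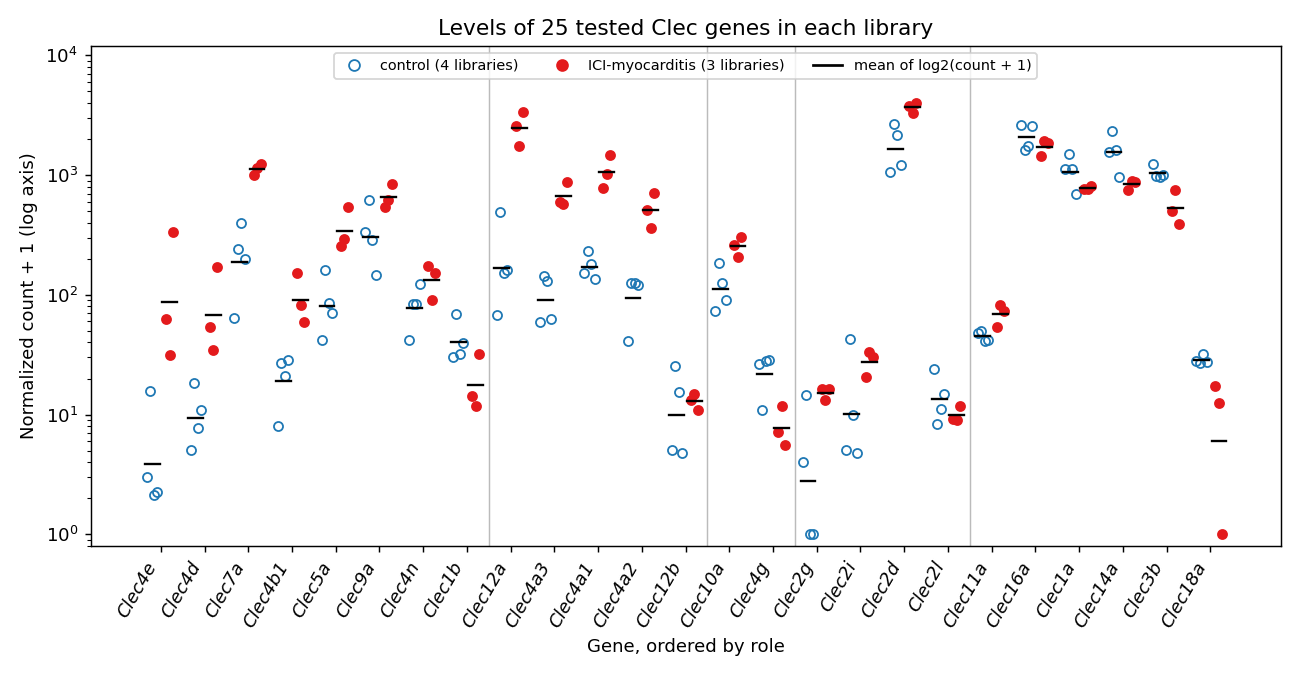
Normalized count + 1 (log axis) of the 25 tested Clec genes in each library, with open circles for the 4 control libraries, filled circles for the 3 ICI-myocarditis libraries and bars for the mean of log2(count + 1). Groups of genes are ordered as in the text, and all filled circles lie above all open circles for 12 genes and below them for 3.

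Among the 8 receptors that signal through ITAM adaptors or a hemITAM, 5 rose and none was called lower, with a median log2 fold change of 2.17. Clec4e encodes Mincle, a receptor for mycobacterial glycolipids and for a protein released by dying cells. It was low in controls, with 2.02, 14.8, 1.12 and 1.25 normalized counts in controls 1 to 4, and reached 61.4, 30.4 and 331 in ICI-myocarditis 1 to 3. Every ICI-myocarditis value exceeded every control, and the third was far above the other two. The log2 fold change was 4.48 (95% interval 2.37 to 6.60, SE 0.939, adjusted p = 0.0131 in limma), and without ICI-myocarditis 3 it was 3.51 and missed the threshold (adjusted p = 0.0604 in limma).

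Clec4d encodes MCL, the partner with which Mincle pairs. Its levels were 4.03, 17.3, 6.70 and 10.01 normalized counts in controls and 53.2, 33.3 and 170 in ICI-myocarditis. As for Clec4e, the groups did not overlap and ICI-myocarditis 3 was highest. The log2 fold change was 2.86 (SE 0.644, adjusted p = 0.0176 in limma). It missed the threshold without ICI-myocarditis 3 (2.20, adjusted p = 0.0841 in limma), control 1 (2.56, 0.0509) or control 3 (2.77, 0.0565).

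Clec7a encodes Dectin-1, the beta-glucan receptor, which carries its own hemITAM. It had 63.5, 242, 394 and 198 normalized counts in controls and 995, 1144 and 1246 in ICI-myocarditis. The ICI-myocarditis libraries were close together while the controls ranged widely. Clec7a rose by 2.59 (SE 0.513, adjusted p = 0.0107 in limma) and stayed past the threshold in all 18 alternative analyses.

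Clec5a encodes MDL-1, which pairs with DAP12 on monocytes and macrophages. It rose from 41.3, 160, 84.9 and 70.1 normalized counts to 256, 289 and 538, by 2.09 on the log2 scale (SE 0.455, adjusted p = 0.0154 in limma). Without ICI-myocarditis 3 the change of Clec5a was 1.76 and missed the threshold (adjusted p = 0.0725 in limma). Clec4b1, which encodes the FcR-gamma-coupled receptor DCAR, had 7.06, 25.9, 20.1 and 27.5 normalized counts in controls and 151, 81.9 and 58.1 in ICI-myocarditis. For this gene ICI-myocarditis 1 was highest, unlike Clec4d and Clec4e. The log2 fold change was 2.25 (SE 0.536, adjusted p = 0.0220 in limma), and it missed the threshold without control 3 (adjusted p = 0.0581 in limma), ICI-myocarditis 1 (0.0872) or ICI-myocarditis 2 (0.0642).

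The other 3 receptors of this set were not called. Clec4n encodes Dectin-2, the receptor for fungal mannans, and lies between Clec4b2 and Clec4d. It had 41.3, 82.6, 82.6 and 121 normalized counts in controls and 174, 89.1 and 151 in ICI-myocarditis, with overlapping groups and a log2 fold change of 0.79 (95% interval -0.13 to 1.71, adjusted p = 0.232 in limma). Clec9a encodes DNGR-1, which binds actin filaments exposed on dead cells and marks cDC1, the dendritic cells that cross-present antigen. Its levels were 335, 614, 288 and 145 normalized counts in controls and 536, 614 and 840 in ICI-myocarditis, so that control 2 reached the level of ICI-myocarditis 2. The log2 fold change of Clec9a was 1.09 (95% interval 0.14 to 2.05, adjusted p = 0.118 in limma). It passed in 2 of 18 alternatives, among them without control 2, its highest control (1.43, adjusted p = 0.0160 in limma). Clec1b encodes CLEC-2, the podoplanin receptor of platelets. Its levels were 29.2, 67.8, 31.3 and 38.8 normalized counts in controls and 13.3, 10.9 and 31.3 in ICI-myocarditis, with a log2 fold change of -1.20 (95% interval -2.28 to -0.11, adjusted p = 0.131 in limma). By the GENCODE M21 annotation, Clec1b and Clec9a overlap by 474 bases on the same strand, so reads there cannot be assigned to either with certainty, and RefSeq also places Clec12b across both on the opposite strand.

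Receptors of the DCIR type and those with an ITIM rose in 4 of the 5 tested cases, with a median log2 fold change of 2.63. The share called higher over all genes tested was 11.7%. Clec12a encodes MICL, an inhibitory receptor of granulocytes and monocytes that binds uric acid crystals. It had 66.5, 487, 151 and 159 normalized counts in controls and 2549, 1753 and 3344 in ICI-myocarditis. The lowest ICI-myocarditis library was thus well above control 2, the highest control. Clec12a rose by 3.87 (95% interval 2.61 to 5.14, SE 0.561, adjusted p = 0.00405 in limma), the second largest change of the family, and its mean rose 11.8-fold, from 216 ± 186 (SD, n = 4) to 2548 ± 795 normalized counts (SD, n = 3).

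Clec4a2 encodes DCIR1, which carries an ITIM, while its neighbours Clec4a1 and Clec4a3 encode DCIR4 and DCIR3, which lack one. Clec4a1 had 150, 231, 180 and 134 normalized counts in controls and 784, 1020 and 1481 in ICI-myocarditis. It had the smallest standard error of the called rises and the lowest p-value of the members (a difference of 2.63 on the log2 scale, SE 0.279, adjusted p = 0.00251 in limma). Clec4a3 had 58.5, 143, 130 and 61.3 normalized counts in controls and 590, 578 and 874 in ICI-myocarditis (a difference of 2.87 on the log2 scale, SE 0.373, adjusted p = 0.00331 in limma). Clec4a2 had 40.3, 125, 124 and 119 in controls and 512, 360 and 711 in ICI-myocarditis (a difference of 2.44 on the log2 scale, SE 0.433, adjusted p = 0.00736 in limma). In all 3 genes the groups were apart, and all 3 calls, with those of Clec12a and Clec7a, held in each of the 18 alternatives. These paralogs are alike in sequence, so reads may be shared among them. Clec12b, an ITIM receptor, was low throughout at 3.75 to 24.7 normalized counts, and its log2 fold change of 0.38 had a 95% interval from -1.11 to 1.88 (adjusted p = 0.751 in limma).

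**Figure D2:**
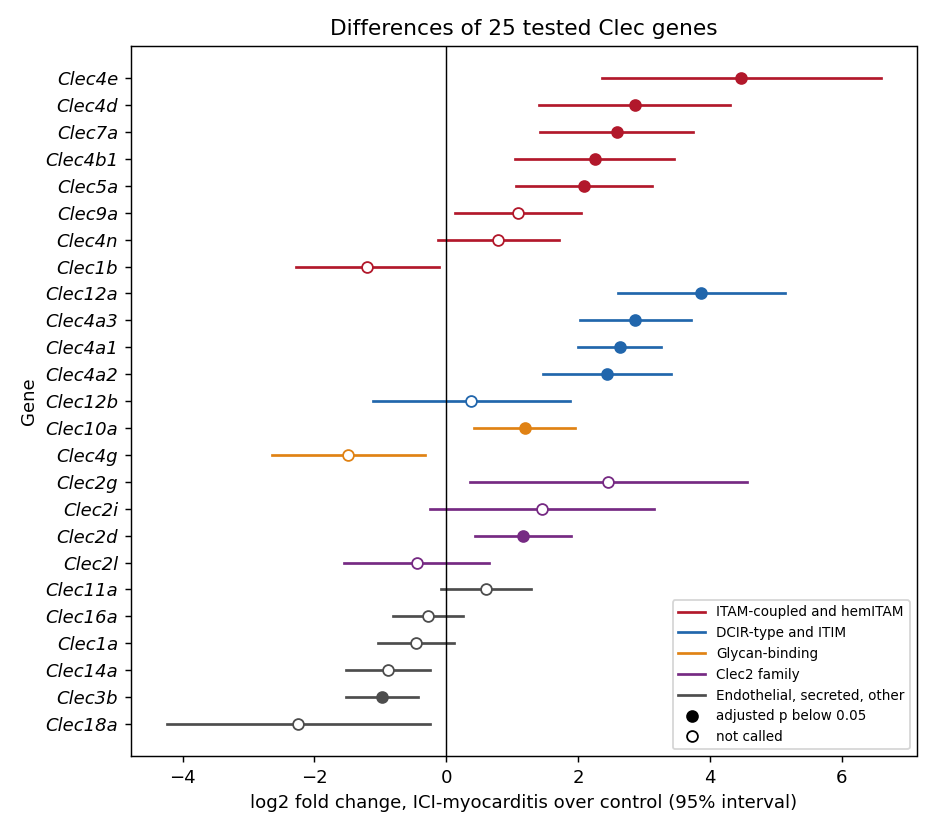
The log2 fold change of ICI-myocarditis over control for the 25 tested Clec genes, with its 95% interval from limma, coloured by role, with filled points at an adjusted p below 0.05. Filled points run from 1.16 (Clec2d) to 4.48 (Clec4e) on the positive side, and Clec3b at -0.98 is the filled point below 0.

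Of the 2 tested glycan-binding and endocytic members, 1 rose and the other was not called, where 11.7% of all genes tested were called higher. Clec10a encodes MGL1 (CD301a), a galactose-type lectin of macrophages and dendritic cells. It had 72.6, 183, 124 and 90.1 normalized counts in controls and 261, 204 and 304 in ICI-myocarditis, apart but by little, with a log2 fold change of 1.19 (SE 0.341, adjusted p = 0.0447 in limma). This call was near the threshold: it held in 6 of 18 alternatives, and it missed it without control 1, 3 or 4 or without any 1 of the ICI-myocarditis libraries (largest limma adjusted p 0.176, without ICI-myocarditis 3). Mgl2, the closest paralog of Clec10a, fell from 302, 381, 504 and 428 normalized counts to 43.0, 230 and 50.4 (a difference of -2.31 on the log2 scale, adjusted p = 0.0187 in limma). The log2 level of Clec10a minus that of Mgl2 was -1.84 ± 0.529 in controls (SD, n = 4), as against 1.66 ± 1.58 in ICI-myocarditis (SD, n = 3). The groups were apart in this difference (exact permutation p = 0.0286, two-sided, adjusted over 9 such comparisons 0.0643). The pair was formed after Clec10a was seen apart above the controls and Mgl2 apart below them. This separation was thus set by the choice of pair and is no separate support. Clec4g encodes LSECtin, known from sinusoidal endothelium. Its levels were 25.2, 9.87, 26.8 and 27.5 normalized counts in controls and 6.14, 10.9 and 4.58 in ICI-myocarditis (a difference of -1.48 on the log2 scale, 95% interval -2.65 to -0.32, adjusted p = 0.0852 in limma). It was called in 4 of 17 alternatives, among them without control 2, the low control (-1.82, adjusted p = 0.0192 in limma).

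Clec2 genes encode the Clr proteins, which are ligands of NKR-P1 receptors on natural killer and T cells. Clec2d, which encodes Clr-b, was the most abundant member per base of transcript in both groups. It had 1059, 2656, 2177 and 1219 normalized counts in controls and 3795, 3323 and 4034 in ICI-myocarditis, with controls 2 and 3 nearer to the other group than controls 1 and 4. Clec2d rose by 1.16 (SE 0.325, adjusted p = 0.0402 in limma), a call that held in 8 of 18 alternatives and that was lost on leaving out any library but control 2 (largest limma adjusted p 0.139, without ICI-myocarditis 3). Klrb1b, which encodes a receptor that binds Clr-b, was 9.07, 56.7, 4.47 and 3.75 normalized counts in controls and 309, 340 and 594 in ICI-myocarditis (a difference of 5.16 on the log2 scale, adjusted p = 0.00457 in limma). It entered the test through the 3 ICI-myocarditis libraries, with 1 control at the filter, and its values are a description.

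The other Clec2 genes were low. Clec2i, which encodes Clr-g, had 4.03, 41.9, 8.93 and 3.75 normalized counts in controls and 19.4, 32.6 and 29.0 in ICI-myocarditis, so the highest library was control 2 (a difference of 1.45 on the log2 scale, adjusted p = 0.235 in limma). Clec2g lay between 0 and 13.6 normalized counts in controls and between 12.3 and 15.3 in ICI-myocarditis (2.46, adjusted p = 0.111 in limma). Both were called in 2 of 17 alternatives, among them without control 2, their highest control (adjusted p = 0.0133 and 0.00925 in limma). Clec2l, a member known from the nervous system, lay between 7.40 and 23.2 (-0.45, adjusted p = 0.592 in limma). The NKR-P1 receptor gene Klrb1f, whose product binds Clr-g, was at 0 to 27.1 in controls and 10.7 to 26.6 in ICI-myocarditis and was not called (adjusted p = 0.173 in limma).

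Of the 6 tested endothelial, secreted and remaining members, 5 had a value below 0, and the median of the 6 on the log2 scale was -0.67. Only 1 of the 6 was called, and it was lower, where 4.0% of all genes tested were called lower. Clec3b encodes tetranectin, a secreted protein that binds plasminogen. It fell from 1244, 973, 969 and 992 normalized counts to 499, 752 and 391, with no overlap (a difference of -0.98 on the log2 scale, 95% interval -1.52 to -0.43, SE 0.242, adjusted p = 0.0262 in limma). The call of Clec3b was lost in 6 of 18 alternatives, among them without control 1 (adjusted p = 0.0743 in limma), control 3 (0.0655), ICI-myocarditis 1 (0.0778) or ICI-myocarditis 3 (0.108). Clec14a encodes an endothelial surface protein active in vessel sprouting. It had 1559, 2346, 1635 and 963 normalized counts in controls and 746, 896 and 879 in ICI-myocarditis, all lower than any control, and its log2 fold change of -0.89 (95% interval -1.52 to -0.25) did not pass (adjusted p = 0.0634 in limma). It was called in 4 of 18 alternatives, among them without control 4, the lowest control (-1.11, adjusted p = 0.0138 in limma).

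Clec1a, the gene of an endothelial and myeloid receptor for a fungal pigment, had 1118, 1511, 1124 and 688 normalized counts in controls and 760, 766 and 807 in ICI-myocarditis (a difference of -0.46 on the log2 scale, 95% interval -1.04 to 0.12, adjusted p = 0.269 in limma). Clec16a, which despite its name encodes an endolysosomal regulator of mitophagy, had 2629, 1627, 1756 and 2557 in controls and 1448, 1928 and 1845 in ICI-myocarditis (-0.28, adjusted p = 0.475 in limma). In both genes the groups overlapped. Clec11a, which encodes the secreted bone growth factor osteolectin, lay between 40.2 and 49.3 normalized counts in controls and between 53.2 and 81.9 in ICI-myocarditis, apart but not called (0.61, adjusted p = 0.218 in limma). Clec18a lay between 25.9 and 31.3 in controls and at 16.4, 11.6 and 0 in ICI-myocarditis, likewise apart but not called (-2.25, 95% interval -4.24 to -0.25, adjusted p = 0.124 in limma). Without ICI-myocarditis 3, the library at 0, the value of Clec18a was -0.95 (adjusted p = 0.291 in limma).

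Clec2h, Clec3a, Clec4b2, Clec4f, Clec4a4 and Clec2e missed the filter and are reported as not measured. Clec2h and Clec4b2 were at or near 0 in every library, Clec3a and Clec4f stayed below 10 normalized counts, and Clec4a4 and Clec2e reached 14.5 in 1 library each, a level like that of the tested Clec2g. Their reads over all 7 libraries numbered 0 for Clec2h, 1 for Clec4b2, 8 for Clec3a, 12 for Clec4f, 37 for Clec4a4 and 49 for Clec2e. Clec4f, a marker of the liver's Kupffer cells, had its reads in controls 1, 2 and 4. Control 4 also held 425 normalized counts of the liver gene Alb and 61.3 of Apoa1, where no other library exceeded 1.53 and 2.05. The part of these liver transcripts in the low members was not tested.

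Levels between genes can be compared only per length, here as normalized counts per kilobase of annotated exon (GENCODE M21, which may differ from the annotation used for counting). In controls the order began with Clec2d (1465 ± 632, SD, n = 4), Clec3b (1053 ± 134), Clec14a (356 ± 124), Clec16a (256 ± 62.6) and Clec1a (214 ± 64.9). Clec2d and Clec3b, Clec14a and Clec16a, and Clec16a and Clec1a each differed by less than the larger SD. In ICI-myocarditis it began with Clec2d (3065 ± 298, SD, n = 3), Clec4a1 (703 ± 228), Clec3b (552 ± 187), Clec4a3 (513 ± 126), Clec12a (461 ± 144) and Clec7a (428 ± 48.0). From Clec4a1 to Clec7a each neighbour differed from the next by less than the larger SD. Clec12a moved from place 12 to place 5 of the 31, and Clec4e from 29 to 17.

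**Figure D3:**
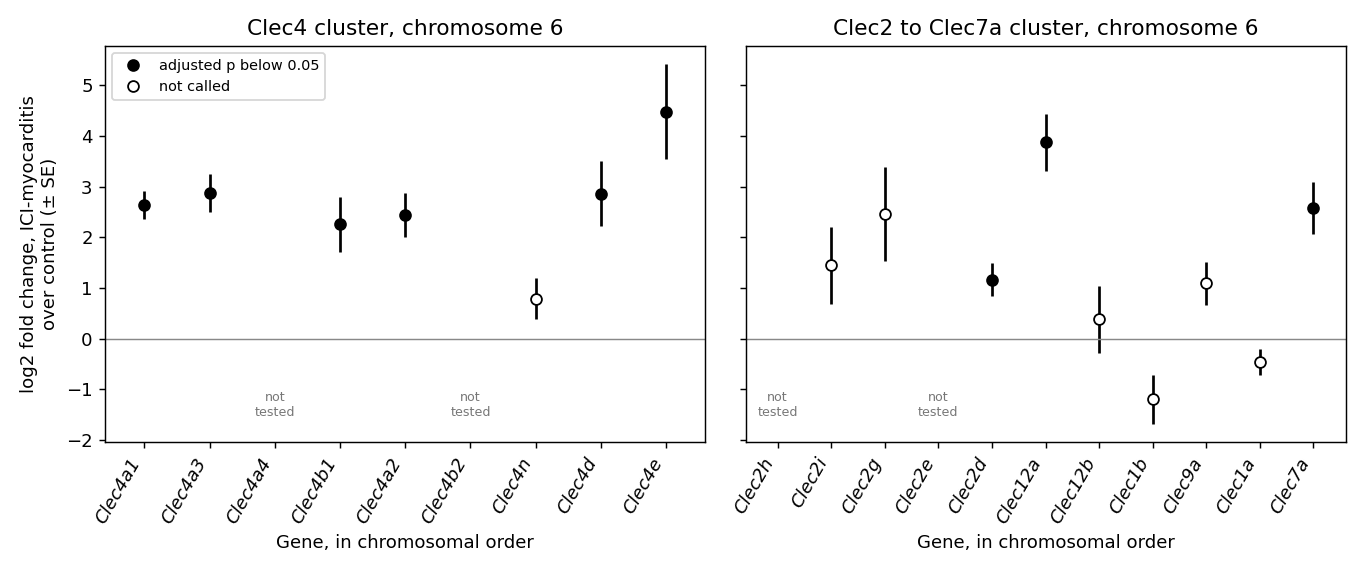
The log2 fold change (± SE, limma) of Clec genes in chromosomal order in the pair of groups on chromosome 6, with filled points at an adjusted p below 0.05 and untested genes marked. In the Clec4 group 6 of 9 genes were called higher and Clec4n, beside Clec4d, was not, while in the other group 3 of 11 were called and Clec1b and Clec1a lay below 0.

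Position and response can be set side by side as a description, with 11.7% of all genes tested called higher and 4.0% lower. In the Clec4 group 6 of 9 genes were called higher, 2 were not measured, and the 7 tested genes had log2 fold changes from 0.79 (Clec4n) to 4.48 (Clec4e). In the group from Clec2h to Clec7a, 3 of 11 were called higher (Clec2d, Clec12a and Clec7a), and values ran from -1.20 (Clec1b) to 3.87 (Clec12a). Of the 11 members elsewhere in the genome, Clec5a and Clec10a were called higher and Clec3b lower. Whether Clec4n differed in its change from its neighbours was not tested.

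Genes of the signalling chain below these receptors were read from a list of 16. Of these, 12 were called higher and none lower, where the shares over all genes tested were 11.7% and 4.0%. The log2 fold changes of the 16 ran from -0.13 to 3.44. Hcst, the called gene at 3.44, entered the test through the 3 ICI-myocarditis libraries, with 2 controls at the filter. The list was chosen with earlier results of these data known. Fcer1g, which encodes the FcR-gamma adaptor of Mincle, MCL and Dectin-2, rose from 227, 361, 249 and 228 normalized counts to 1576, 1917 and 3754 (a difference of 3.10 on the log2 scale, adjusted p = 0.00251 in limma). Tyrobp, which encodes DAP12, the adaptor of MDL-1, rose from 248, 464, 391 and 460 to 2853, 1619 and 2632 (2.60, adjusted p = 0.00251 in limma). Both adaptors were apart between the groups. The kinase gene Syk rose by less, from 1246 ± 74.0 (SD, n = 4) to 2414 ± 567 (SD, n = 3), or 0.93 on the log2 scale (adjusted p = 0.0136 in limma).

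Its effectors Card9, Malt1 and Bcl10 were not called, at 1.07, 0.76 and 0.17 (adjusted p = 0.105, 0.185 and 0.567 in limma). Vav1, Plcg2 and Prkcd, also on the list, were called higher, at 2.93, 1.52 and 1.48 (adjusted p = 0.00657, 0.00825 and 0.0166 in limma). Of the phosphatase genes that act below ITIM receptors, Ptpn6 (SHP-1) rose by 2.91 and Inpp5d (SHIP-1) by 2.00 (adjusted p = 0.00597 and 0.00823 in limma), while Ptpn11 (SHP-2), which is expressed in most cells, was at -0.13 (adjusted p = 0.804 in limma). Among ligands, Vim, whose product can bind Dectin-1, rose by 1.36 (adjusted p = 0.0121 in limma), and Pdpn, which encodes the CLEC-2 ligand podoplanin, was at 0.79 and not called (adjusted p = 0.133 in limma). Sap130, from the same list of ligands, was at 0.06 and not called (adjusted p = 0.894 in limma).

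C-type lectin domain genes with other symbols formed a list of 24, also chosen with earlier results known. Of these, 16 were tested, with a median log2 fold change of 0.84. Among the 16, 7 were called higher and 2 lower, against 11.7% and 4.0% of all genes tested. Cd69, an early activation marker of lymphocytes, rose by 4.42, Ly75 (DEC-205, an endocytic receptor of dendritic cells) by 3.48 and Olr1 (the scavenger receptor LOX-1) by 3.34 (adjusted p = 0.00552, 0.00251 and 0.00658 in limma). Cd69 and Olr1 entered the test through the 3 ICI-myocarditis libraries, with 1 control each at the filter. Mrc1, the macrophage mannose receptor gene, rose by 0.79 (adjusted p = 0.0395 in limma). Selp, which encodes P-selectin of platelets and endothelium, rose by 1.53 (adjusted p = 0.0427 in limma), and Mrc2 by 1.26 (adjusted p = 0.0172 in limma). Thbd, which encodes thrombomodulin of endothelium, fell by 1.29 (adjusted p = 0.0156 in limma). This list was called 9 times with all libraries and 3 times without ICI-myocarditis 3.

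Most markers of macrophages, monocytes and the cDC1 type of dendritic cell rose, as did 3 of 5 of the cDC2 type. Few of the platelet, neutrophil and fibroblast markers were called. For comparison, 11.7% of all genes tested were called higher and 4.0% lower. Of 6 macrophage markers 5 were called higher, and their summed level was 5982 to 7541 normalized counts in controls and 18916 to 38328 in ICI-myocarditis. Of 5 monocyte markers 4 were called higher (sums 1723 to 3074 and 7537 to 10370). All 6 cDC1 markers were called higher (sums 812 to 2426 and 5125 to 9917), and 3 of 5 cDC2 markers (sums 2288 to 3978 and 6170 to 13112). Those 3 were Flt3, Itgax and Sirpa. Of these, Flt3 entered the test through the 3 ICI-myocarditis libraries, with 2 controls at the filter. Cd209a (0.23 on the log2 scale, adjusted p = 0.830 in limma) and Zbtb46 (-0.47, adjusted p = 0.350 in limma) were not called. Of 5 endothelial markers 2 were called lower (sums 20390 to 43789 and 14140 to 19552), while none of 6 platelet markers, 5 of them tested, was called (sums 501 to 997 and 313 to 500.3). Neutrophils, which carry Mincle, MCL and MICL, were read from 4 markers, 3 of them tested, of which Csf3r was called higher (adjusted p = 0.0139 in limma), and S100a8 and S100a9 were at 4.03 to 56.3 normalized counts with overlapping groups. Of 5 fibroblast markers 1 was called higher (sums 59166 to 96082 and 67595 to 111820). None of these lists had a marker at 0 in all libraries. The part of cell numbers in the changes of Clec genes was not tested.

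Each of 8 members was therefore also expressed relative to a marker list of a cell type it is known from, as its log2 level minus the mean log2 level of the markers. These pairs were chosen after the values were seen, the pair of Clec10a with Mgl2 was added after the other 8 results were known, and 35 splits of 7 libraries allow no exact p below 0.0286. Clec9a relative to cDC1 markers was 2.20, 1.57, 1.86 and 1.46 in controls and -0.16, -0.11 and -0.12 in ICI-myocarditis. The 3 ICI-myocarditis values were nearly equal and all below the controls, a difference of -1.90 (exact permutation p = 0.0286, two-sided, adjusted 0.0643). It was -1.76 or lower on leaving out any 1 library. Of the 6 markers, Xcr1 rose most (3.90 on the log2 scale), from 13.1, 72.8, 25.7 and 15.0 normalized counts to 276, 414 and 501. Tlr3 rose least (1.07), and Clec9a, whose levels overlapped, changed by 1.09. The annotated overlap of Clec9a with Clec1b applies here too, and which cells its reads came from was not tested.

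Clec3b relative to fibroblast markers was -2.48 ± 0.267 in controls (SD, n = 4), as against -3.91 ± 0.767 in ICI-myocarditis (SD, n = 3), a difference of -1.43 with no overlap (exact permutation p = 0.0286, adjusted 0.0643). Of the 5 fibroblast markers, Col1a1 was itself called higher (a difference of 1.87 on the log2 scale, adjusted p = 0.0185 in limma). Clec1a relative to endothelial markers was higher in ICI-myocarditis by 0.58, again with no overlap (exact permutation p = 0.0286, adjusted 0.0643). For Clec14a relative to the same markers the difference was 0.15 with overlapping groups (exact permutation p = 0.343, adjusted 0.441). Clec12a relative to monocyte markers differed by 0.61 (exact permutation p = 0.0857, adjusted 0.154), Clec10a relative to cDC2 markers by -0.80 (exact permutation p = 0.171, adjusted 0.257), Clec1b relative to platelet markers by -0.42 (exact permutation p = 0.429, adjusted 0.482) and Clec7a relative to macrophage markers by 0.43 (exact permutation p = 0.657, adjusted 0.657). None of the 9 comparisons passed 0.05 after adjustment.

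**Figure D4:**
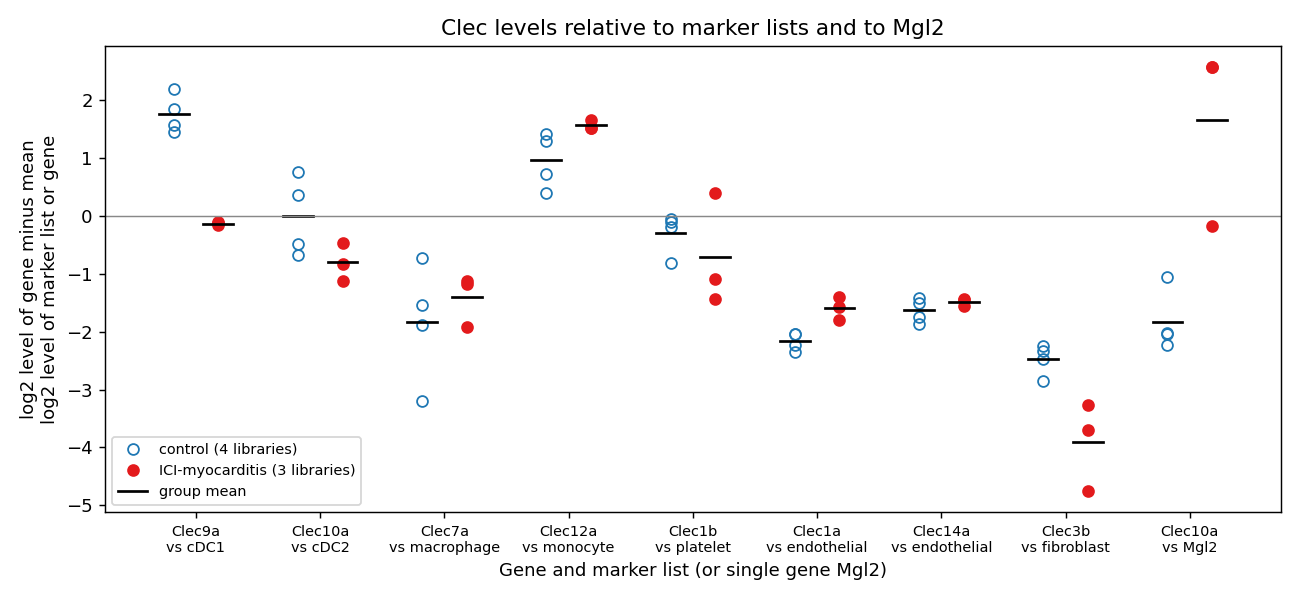
Log2 level of a Clec gene minus the mean log2 level of a marker list, or minus that of Mgl2, in each library, with open circles for the 4 controls, filled circles for the 3 ICI-myocarditis libraries and bars for group means. Groups are apart for Clec9a and Clec3b (lower in ICI-myocarditis) and for Clec12a, Clec1a and Clec10a against Mgl2 (higher).

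Libraries differed within their groups in a like way for many members. Among the 11 called rises, control 2 was the highest control for 9 genes and ICI-myocarditis 3 the highest library for 10. Control 2 was the highest control for 17 of the 25 tested members and for 35.3% of all genes tested. The share of all genes with ICI-myocarditis 3 as the highest library was not computed, so the 10 of 11 has no such comparison. The genes where ICI-myocarditis 3 stood furthest above the other two were Clec4e and Clec4d, as in the plot of levels by library.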

How the data were processed

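Total RNA of 7 mouse hearts was sequenced (stranded total RNA kit, paired-end, per the labels). The submitters' processing notes name STAR 2.7.3 and the build GRCm38 (mm10), while the counting program and annotation are not given in the sources used here. The deposited per-library values are a signal, namely read counts that the authors divided by 1 size factor per library. The authors' deposited table also gives a log2 fold change with its SE, a test score and p-values before and after adjustment, with header names as DESeq2 writes them.

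Each column divided by its own smallest increment gave values within 0.00092 of whole numbers, and these were taken as reads (in control 1 the increment was 1.01, a weaker sign). Group and replicate number came from the titles. limma (3.58.1, R 4.3.3) was fitted to log2(normalized count + 1) with trend and robust variance, and p-values were adjusted over all genes tested by Benjamini-Hochberg. On this scale the fold change of a low gene depends on the added 1 and can be larger or smaller than the ratio of means (Clec2g 2.46, against 1.79 with DESeq2, and Clec2i 1.45 against 0.89). The design text gives 4 control and 3 ICI-myocarditis mice, as many as libraries, and each library was taken as 1 mouse. No 2 libraries of the same group agreed within sampling noise (chi-square per degree of freedom at least 81.8). Alternatives used other pseudocounts, filters and scalings, edgeR 4.0.16, DESeq2 1.42.0 and limma-voom with quality weights on the recovered reads, a replicate block, and each library left out. All Clec genes above the filter are named, and by rule called genes of the partner and lectin lists may be. Genes of those lists that were not called, Xcr1, Tlr3, the named cDC2 markers, Col1a1, Csf3r and the liver genes were picked for their role or change with values known. The members and lists were chosen with earlier results of these data known. Sequences are from RefSeq (GRCm38.p6), matched by symbol.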

Additional observations from a re-analysis of the deposited data

Results flagged for a closer look

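In the 4 controls, 3 of 25 tested Clec genes had an outlying library by Dixon's 95% criterion, computed on log2(normalized count + 1). The criterion is the gap to the nearest neighbour as a share of the whole range, which chance meets in about 1 in 20 groups. Gaps below are on that log2 scale, while the levels in brackets are normalized counts. For Clec4a2 control 1 was low (40.3 normalized counts against 119 to 125), with a gap of 0.958 of the range. For Clec3b control 1 was high (1244 against 969 to 992), with a gap of 0.906. For Clec4g control 2 was low (9.87 against 25.2 to 27.5), with a gap of 0.912.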

How the results depend on the processing

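Of the 11 rises, those of Clec4a1, Clec4a3, Clec12a, Clec4a2 and Clec7a were called in all 18 alternatives, and no tested Clec gene changed sign. The 11 rises numbered 6 to 14 on leaving out single libraries. The single fall became 0 to 2 on leaving out libraries, 0 with scaling by library total, 2 without trend or robust variance, 3 with DESeq2 and 4 with limma-voom with quality weights. Calls over all genes, 2397, ranged from 986 to 3340 on leaving out libraries were 4038 with limma-voom with quality weights, and were 2131 with edgeR on the recovered reads. Over all alternatives, calls among the partner genes, 12, ranged from 8 to 14, and among other lectin genes, 9, from 3 to 12 (3 to 10 on leaving out libraries). Clec7a relative to macrophage markers changed sign without control 1 (-0.022, from 0.43) and ranged up to 0.80 without control 3. The causes were not tested. Scaling by library total moved the median of all genes by 0.16, and the share of calls that were higher from 74.6% to 84.3%; DESeq2 and the weighted limma-voom gave 62.8% and 62.0%. With the replicate number as a block, 9 Clec genes were called higher and 1 lower, which was Clec14a (adjusted p = 0.0273 in limma) and not Clec3b (0.0639), 1780 genes in all, 9 partner genes and 6 other lectin genes. The numbers did not pair the libraries: deviations of same-numbered libraries correlated at -0.271, -0.206 and -0.0784, and no library correlated best with its own number. Counts of low members such as Clec4e, Clec12b and Clec2g are limited by depth. The pairs relative to markers were recomputed with other pseudocounts and single libraries left out, alternatives chosen after seeing the data.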
